A study of Homo sapiens with 6 samples.

Results

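The transcripts followed here encode 10 secreted factors of blood vessel growth: the vascular endothelial growth factors VEGFA, VEGFB and VEGFC with their relative PGF (placental growth factor), the platelet-derived growth factors PDGFA, PDGFB, PDGFC and PDGFD, and the thrombospondins THBS1 and THBS2. They were chosen by gene symbol, and all 10 were found among the 55882 rows of the count table. Each was measured in 6 libraries of polyadenylated RNA from DIvA cells, a line made from U2OS osteosarcoma cells in which 4-hydroxytamoxifen (4-OHT) sends the restriction enzyme AsiSI into the nucleus to cut DNA. Of these, 3 came from cells labelled p53 WT and 3 from cells labelled p53 KO, and both groups had been given 300 nM 4-OHT for 5 h. The cells of both groups therefore carried the enzyme and had been exposed to its inducer, and cells without 4-OHT were not analysed here. How p53 was knocked out, in how many clones, and whether the replicates were separate cultures is not given in the labels. The comparison is between these cell populations, and their other differences cannot be told apart from the loss of p53. In such bulk RNA, fewer cells that make a transcript and less of it per cell cannot be told apart.

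VEGFs are dimeric growth factors that act mostly on endothelial cells through the receptor tyrosine kinases FLT1, KDR and FLT4, with neuropilins as co-receptors. VEGFA drives the sprouting of blood vessels and is induced by low oxygen, VEGFC drives lymphatic growth, and VEGFB and PGF bind FLT1. PDGFs are related dimers that recruit pericytes, smooth muscle cells and fibroblasts through the receptors PDGFRA and PDGFRB, and PDGFC and PDGFD are made as latent forms that a protease must open. The thrombospondins THBS1 and THBS2 are large matrix glycoproteins that restrain endothelial cells through CD36 and CD47. In tumours, including those of bone, such factors carry signals from the tumour cells to the vessel wall, and p53 has been described in other cells both as an inducer of THBS1 and as a repressor of VEGFA.

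Without p53, PDGFA, VEGFC and PDGFC were lower and the other 7 factors did not pass the test. PDGFA fell to 33.3% of its p53 WT level, VEGFC to 43.0% and PDGFC to 57.4%. The most abundant factor, THBS1, and the best known, VEGFA, had overlapping groups. So 3 of the 10 factors fell and 0 rose at an adjusted p under 0.05 by the edgeR quasi-likelihood test over 22352 genes. At an unadjusted p under 0.05 the numbers were 3 lower and 1 higher, and DESeq2 and limma-voom also called 3 lower and 0 higher. Of all genes tested, 26.5% were called, 14.4% lower and 12.1% higher in p53 KO, so the share of factors called (30%) was near that of all genes. The median log2 fold change (p53 KO over p53 WT) was -0.17 for the 10 factors and 0.0052 for all genes tested. The ranges of the groups in CPM (counts scaled to a common library size, with factors for library composition) did not overlap for 4 factors, and for 40.8% of all genes tested.

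**Figure D1:**
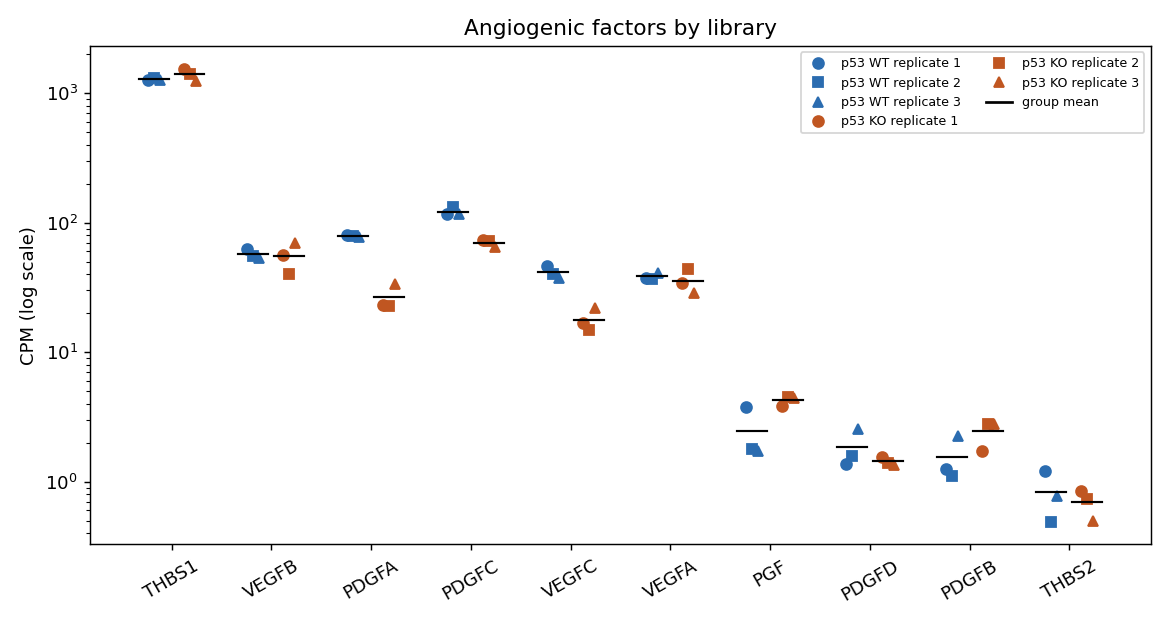
CPM of the 10 factors (log axis) in each library, blue for p53 WT and orange for p53 KO, with 1 symbol per replicate number and a bar at each group mean. PDGFA, PDGFC and VEGFC are separated between groups by wide gaps, PGF by a narrow one, and the other 6 factors overlap.

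Libraries held 20393909 to 79767519 counts. A value of 3 counts, about the 95% upper limit for an observed count of 0, equals 0.0376 to 0.147 CPM by counting error alone. CDKN1A, the cell cycle inhibitor that p53 induces, had 521 to 572 CPM in p53 WT and 41.8 to 49.1 CPM in p53 KO. MDM2, the p53-induced ubiquitin ligase, had 187 to 242 CPM in p53 WT and 43.0 to 68.9 CPM in p53 KO.

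Among the PDGF ligands, PDGFA and PDGFC carried nearly all of the signal and both fell. PDGFA, whose product forms the PDGF-AA dimer that signals through PDGFRA, had 80.5, 79.0 and 77.4 CPM in p53 WT replicates 1, 2 and 3. In p53 KO it had 23.3, 22.8 and 33.3 CPM. The p53 WT libraries lay close together, replicate 3 was the highest of the p53 KO libraries, and the groups were far apart. The log2 fold change of PDGFA was -1.59 (SE 0.14, 95% interval -1.89 to -1.28, adjusted p = 2.47e-06).

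PDGFC, a ligand of PDGFRA that becomes active once its CUB domain is cut off, had 117, 133 and 116 CPM in p53 WT. In p53 KO it had 73.1, 71.6 and 64.9 CPM. Every p53 KO library lay below every p53 WT library, and p53 WT replicate 2 was the highest. This gave a log2 fold change of -0.80 (SE 0.10, 95% interval -1.02 to -0.58, adjusted p = 5.70e-05).

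PDGFB and PDGFD, the ligands of PDGFRB, were scarce. PDGFB had 1.26, 1.12 and 2.26 CPM in p53 WT and 1.73, 2.81 and 2.81 CPM in p53 KO, from 55 to 128 counts per library. The lowest p53 KO library lay below the highest p53 WT library, and the log2 fold change of 0.68 had a 95% interval from -0.16 to 1.52 (adjusted p = 0.236). PDGFD had 1.37, 1.59 and 2.55 CPM in p53 WT and 1.55, 1.39 and 1.35 CPM in p53 KO, from 27 to 115 counts. Its groups overlapped too, and the interval of -1.17 to 0.50 around a log2 fold change of -0.33 leaves the direction undecided (adjusted p = 0.593).

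Among the VEGF ligands only VEGFC passed the test. VEGFC, the ligand of FLT4 on lymphatic endothelium, had 46.5, 40.1 and 37.1 CPM in p53 WT and 16.9, 14.8 and 21.9 CPM in p53 KO. The groups did not overlap, and the highest p53 KO library, replicate 3, lay well below the lowest p53 WT library, also replicate 3. The log2 fold change came to -1.22 (SE 0.16, 95% interval -1.55 to -0.88, adjusted p = 5.29e-05).

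VEGFA had 37.7, 36.5 and 41.1 CPM in p53 WT and 34.3, 44.2 and 28.6 CPM in p53 KO. The p53 KO libraries spread on both sides of the p53 WT libraries, replicate 2 above and the others below. The log2 fold change was -0.10 with a 95% interval of -0.42 to 0.22 (adjusted p = 0.680), so that a rise of VEGFA by more than 0.22 on the log2 scale lies outside the interval. VEGFA counts sum over its splice forms, 24 coding transcripts in the GENCODE 29 basic set, and shifts between them do not show in these values.

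VEGFB, which binds FLT1, had 63.0, 54.8 and 53.1 CPM in p53 WT and 56.7, 40.5 and 69.9 CPM in p53 KO. Its p53 KO libraries spread more widely (SD 14.7 CPM, against 5.30 CPM in p53 WT) and enclosed the p53 WT range, with a log2 fold change of -0.04 (95% interval -0.38 to 0.31, adjusted p = 0.900).

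PGF, the placental growth factor, had 3.80, 1.80 and 1.73 CPM in p53 WT and 3.86, 4.49 and 4.41 CPM in p53 KO. The groups did not overlap, but p53 WT replicate 1 lay close under the p53 KO libraries and well above the other 2 p53 WT libraries. The log2 fold change of 0.78 (SE 0.33) had an unadjusted p of 0.0337 and an adjusted p of 0.103. Without p53 WT replicate 1 it was 1.26 with adjusted p = 0.0149, and without any other single library the adjusted p was 0.135 to 0.328.

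The thrombospondins differed from each other far more than they differed between groups. THBS1, an inhibitor of vessel growth and an activator of latent TGF-beta, had 1267, 1318 and 1256 CPM in p53 WT and 1548, 1401 and 1238 CPM in p53 KO. The p53 KO libraries ran from just below the p53 WT range to well above it, with replicate 3 the lowest. The log2 fold change was 0.12 (SE 0.09, 95% interval -0.08 to 0.33, adjusted p = 0.388), so a fall of THBS1 by more than 0.08 on the log2 scale lies outside the interval. THBS2, a close relative, had 0.491 to 1.21 CPM in p53 WT and 0.501 to 0.851 CPM in p53 KO, from 10 to 95 counts. At that depth its log2 fold change of -0.23 had a 95% interval of -1.45 to 0.99 (adjusted p = 0.816).

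In the deposited comparison table of the authors, whose fold changes are positive where p53 WT is higher, the same 3 factors had the smallest adjusted p-values. The authors' deposited table gives log2 fold changes of 1.56 for PDGFA, 1.19 for VEGFC and 0.78 for PDGFC, with adjusted p-values of 3.83e-17, 3.94e-07 and 5.17e-10. Of the genes called below by edgeR, FLT1, MDK, NOTCH3 and HIF1A were above 0.05 there, at adjusted p-values of 0.236, 0.249, 0.115 and 0.0877. That table marks 124 of 35987 genes as meeting a p53 cistrome, and 0 of the 10 factors. CDKN1A and MDM2 are marked, and so are PCSK5, MMP2 and ACTA2, which are described below.

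To compare the levels of different genes, CPM was divided by the length of the longest coding transcript in GENCODE 29. In p53 WT the order from high to low was THBS1, VEGFB, PDGFA, PDGFC, VEGFC, VEGFA, PGF, PDGFD, PDGFB and THBS2. THBS1 stood at 165 ± 4.20 CPM per kilobase (SD, n = 3), VEGFB at 41.3 ± 3.84, PDGFA at 34.3 ± 0.691, PDGFC at 29.2 ± 2.34, VEGFC at 19.98 ± 2.33 and VEGFA at 10.9 ± 0.677. Each of these 6 was separated from the next by non-overlapping libraries, as VEGFA was from PGF, at 1.27 ± 0.611 CPM per kilobase. PDGFD, at 0.453 ± 0.154, and PDGFB, at 0.442 ± 0.178, did not differ beyond their spread, and THBS2 was lowest at 0.142 ± 0.0621 CPM per kilobase.

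In p53 KO the order changed in the middle. PDGFC, at 16.8 ± 1.06 CPM per kilobase (SD, n = 3), stood above PDGFA, at 11.5 ± 2.58, with libraries that did not overlap. PDGFA overlapped with VEGFA, at 10.1 ± 2.23, and VEGFA with VEGFC, at 8.66 ± 1.75 CPM per kilobase. THBS1 and VEGFB kept the first places at 180 ± 19.96 and 40.4 ± 10.7, and PGF stood at 2.21 ± 0.178, PDGFB at 0.700 ± 0.178, PDGFD at 0.354 ± 0.0262 and THBS2 at 0.120 ± 0.0306 CPM per kilobase.

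The makeup of each family shifted accordingly. The 4 PDGF genes summed to 63.6, 66.9 and 62.6 CPM per kilobase in p53 WT replicates 1, 2 and 3 and to 28.6, 28.2 and 31.2 in p53 KO. PDGFA made up 51.2% to 54.9% of that sum in p53 WT and 35.0% to 46.4% in p53 KO, where PDGFC took the larger share in each library. The 4 VEGF genes summed to 69.0 to 80.8 CPM per kilobase in p53 WT and 51.4 to 71.6 in p53 KO, with overlap. Within that sum VEGFC fell from between 26.1% and 27.9% to between 13.5% and 14.8%, whereas VEGFA took 13.2% to 16.9% in p53 WT and 11.3% to 24.3% in p53 KO. These shares describe RNA per length, not protein, and were given no test.

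**Figure D2:**
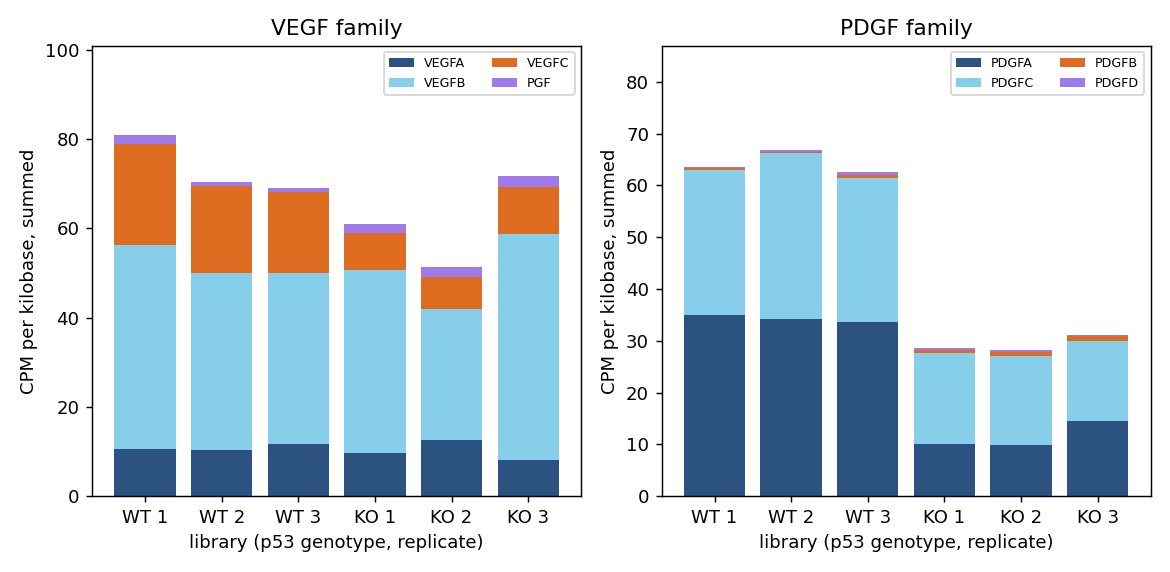
Summed CPM per kilobase of the VEGF genes (left) and the PDGF genes (right) in each library, stacked by gene. The PDGF sum is 62.6 to 66.9 in p53 WT and 28.2 to 31.2 in p53 KO, while the VEGF sums of the groups overlap and the VEGFC segment is narrower in p53 KO.

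Promoters are shown for PDGFA and VEGFC, which fell together, and for THBS1, the most abundant factor, which did not pass the test. They are the 300 bases from 250 before to 50 after the gene start in RefSeq on GRCh38.p14, on the gene's own strand, and 7 of the 10 factors have one in the table, VEGFA, PDGFB and PDGFC having none. PDGFA (minus strand, chr7:520651-520950) has 4 starts in the table and is shown at the outermost, VEGFC is at chr4:176792873-176793172 (minus strand) and THBS1 at chr15:39580829-39581128 (plus strand). Capitals mark, on either strand, the hypoxia-response cores ACGTG and GCGTG, the GC box GGGCGG and the p53 decamer, the unit that occurs as a pair in p53 sites.
PDGFA promoter: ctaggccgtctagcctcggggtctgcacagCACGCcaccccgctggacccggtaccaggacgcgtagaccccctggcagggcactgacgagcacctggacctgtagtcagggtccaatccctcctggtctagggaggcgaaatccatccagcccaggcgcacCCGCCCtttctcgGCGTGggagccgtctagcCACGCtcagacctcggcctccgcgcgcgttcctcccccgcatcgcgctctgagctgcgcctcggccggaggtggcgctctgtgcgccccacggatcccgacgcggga
VEGFC promoter: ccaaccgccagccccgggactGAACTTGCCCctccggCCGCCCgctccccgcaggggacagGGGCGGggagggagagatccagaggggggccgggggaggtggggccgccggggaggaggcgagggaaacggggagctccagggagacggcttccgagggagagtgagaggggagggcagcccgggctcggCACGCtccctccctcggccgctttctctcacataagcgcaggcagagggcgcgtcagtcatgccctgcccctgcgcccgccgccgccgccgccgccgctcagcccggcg
THBS1 promoter: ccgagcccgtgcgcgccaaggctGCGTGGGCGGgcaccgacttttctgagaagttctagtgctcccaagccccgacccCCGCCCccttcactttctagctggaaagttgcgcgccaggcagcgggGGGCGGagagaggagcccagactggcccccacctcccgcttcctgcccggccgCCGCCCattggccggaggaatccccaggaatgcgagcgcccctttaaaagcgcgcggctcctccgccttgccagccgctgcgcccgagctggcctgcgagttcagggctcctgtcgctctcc
The PDGFA window holds 3 GCGTG cores and 1 GC box, and the VEGFC window 1 GCGTG core, 2 GC boxes and 1 p53 decamer. In the THBS1 window there were 4 GC boxes and 1 GCGTG core, and that core shares a base with the first GC box. Over all 7 windows, GCGTG was in 6, against 36.5% of the 35116 promoters of the same length in the table, a GC box in 6, against 45.0%, a p53 decamer in 2 (VEGFC and PDGFD), against 6.63%, and ACGTG in 1 (THBS2), against 21.4%. The factor promoters had 61.7% to 84.7% G and C bases, and the median promoter 58.7%. Matches were thus found in windows of promoters that fell and of those that did not pass the test, and a match describes letters, not binding.

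Since a factor can share a shift with the genes around it, each factor was also set against the 50 nearest expressed protein-coding genes in chromosome order. The median of these genes was subtracted as a fixed value, so p-values after subtraction leave out the spread among the neighbours. For VEGFC and PDGFC, both on chromosome 4, the neighbours had median log2 fold changes of -0.09 and -0.10, with 20 and 21 of 50 above 0. PDGFA, near the end of chromosome 7, lay beside genes that were mostly higher in p53 KO (median 0.31, 41 of 50 above 0), although the only neighbour on its outer side was lower. With the neighbours' median subtracted, the log2 fold changes were -1.12 for VEGFC, -0.70 for PDGFC and -1.90 for PDGFA, with adjusted p = 0.000153, 0.000232 and 7.62e-07.

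PGF was the opposite case. It lies on chromosome 14 among genes that were lower in p53 KO, with a median of -0.91 and 45 of 50 below 0. With the neighbours' median subtracted, its log2 fold change was 1.68 with adjusted p = 0.00249, against 0.78 and 0.103 before. PDGFB, on chromosome 22, had 46 of 50 neighbours below 0 (median -0.38), and its value moved from 0.68 to 1.06 (adjusted p = 0.0728). PDGFD, on chromosome 11, had 39 of 50 neighbours above 0 (median 0.45), and its value moved from -0.33 to -0.78 (adjusted p = 0.190). For VEGFA, VEGFB, THBS1 and THBS2 the local medians were -0.0073, 0.10, -0.0053 and 0.09.

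**Figure D3:**
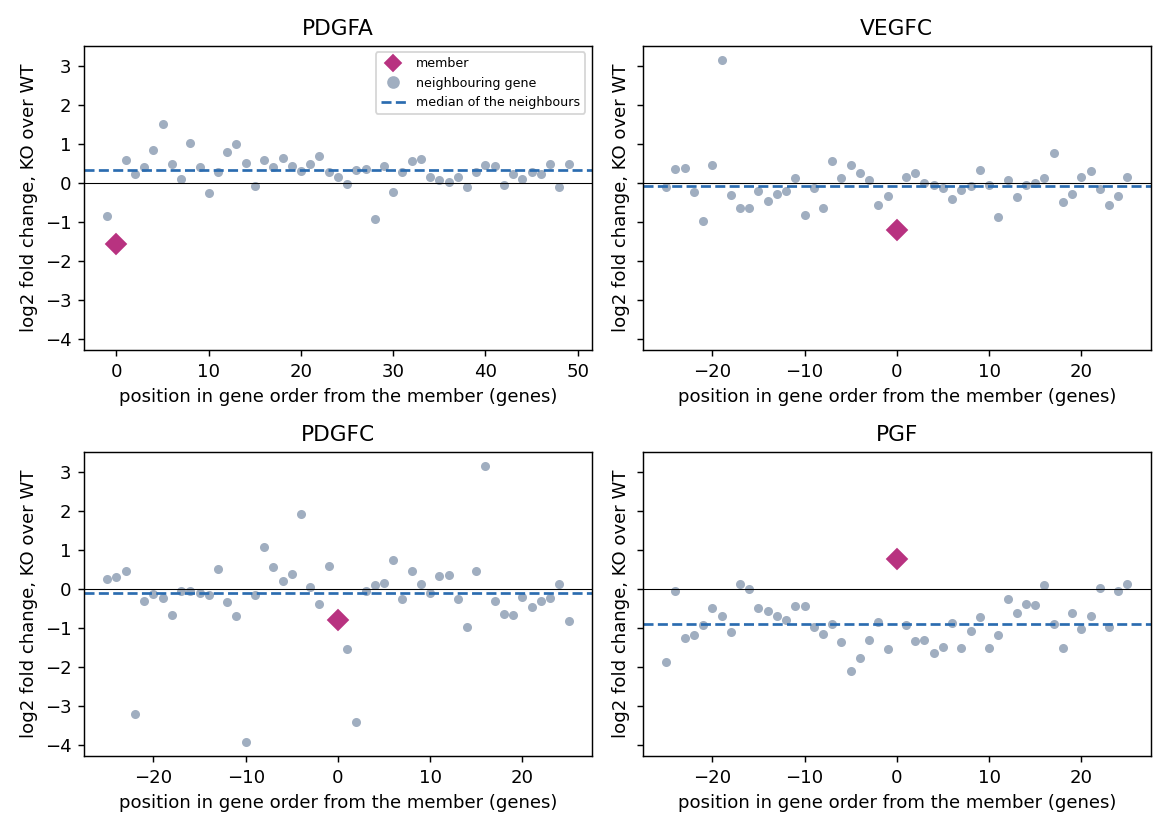
Log2 fold change (p53 KO over p53 WT) of PDGFA, VEGFC, PDGFC and PGF (diamonds) and of their 50 nearest expressed protein-coding genes (grey) by place in gene order, with the median of the neighbours as a dashed line. PDGFA lies below neighbours with a median of 0.31, PGF lies above neighbours with a median of -0.91, and the neighbours of VEGFC and PDGFC have medians near 0.

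The receptors of these factors changed in both directions. Of 10 receptors and co-receptors, 9 were tested, 4 rose and 1 fell (55.6% called, against 26.5% of all genes tested), with a median log2 fold change of 0.23. NRP1, the co-receptor that binds VEGFA and also class 3 semaphorins, had 92.1, 101 and 98.4 CPM in p53 WT and 22.8, 23.1 and 13.5 CPM in p53 KO. Its groups were far apart, at -2.28 on the log2 scale (SE 0.17, adjusted p = 4.39e-07). NRP2, the co-receptor for VEGFC, was scarce, with 36, 46 and 27 counts in p53 WT and 4, 23 and 0 in p53 KO, and did not pass the test (adjusted p = 0.244). Without p53 KO replicate 2 NRP2 passed the test at -4.24 on the log2 scale (adjusted p = 0.0188).

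FLT4, the receptor of VEGFC, had 18.1, 19.2 and 19.2 CPM in p53 WT and 32.8, 35.6 and 28.2 CPM in p53 KO (0.78 on the log2 scale, SE 0.13, adjusted p = 0.000553). The direction was thus opposite to that of its ligand. FLT1, the receptor of VEGFA, VEGFB and PGF, rose from 0.356 to 0.863 CPM to 1.40 to 1.80 CPM (log2 fold change 1.54, adjusted p = 0.0373). That call of FLT1 was lost without p53 WT replicate 1 or 2 or p53 KO replicate 1 or 2, at adjusted p from 0.0689 to 0.131, with no filter on low counts (adjusted p = 0.0504) and with its neighbours' median removed (adjusted p = 0.0645). KDR, the main VEGFA receptor of endothelium, had 17 counts in p53 WT replicate 1 and 0 in the other 5 libraries, and was not tested.

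PDGFRB, the receptor for PDGFB and PDGFD, had 15.6, 19.1 and 20.02 CPM in p53 WT and 27.3, 31.8 and 23.2 CPM in p53 KO (log2 fold change 0.59, SE 0.15, adjusted p = 0.0102). Its adjusted p was 0.0545 without p53 WT replicate 1 and 0.0530 without p53 KO replicate 2. PDGFRA, the receptor of the ligands that fell, had 6.08 to 7.28 CPM in p53 WT and 4.71 to 10.0 CPM in p53 KO, with overlap and a log2 fold change of 0.23 (95% interval -0.31 to 0.77, adjusted p = 0.569). PDGFRL, a PDGF receptor-like protein, rose from 5.52 ± 0.332 to 8.93 ± 0.563 CPM (SD, n = 3) with a log2 fold change of 0.69 (adjusted p = 0.0155), and its adjusted p was 0.0751 and 0.0523 without p53 WT replicates 2 and 3. Of the thrombospondin receptors, CD47 had 23.2 to 24.6 CPM in p53 WT and 22.0 to 26.1 CPM in p53 KO (adjusted p = 0.892), and CD36 had 0 to 17 counts per library.

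**Figure D4:**
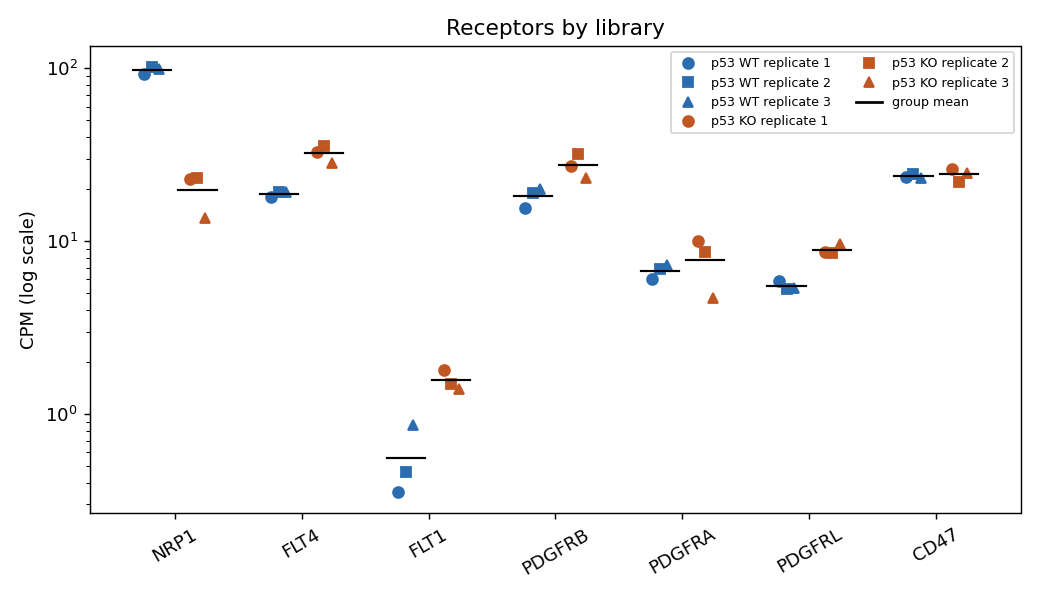
CPM (log axis) of 7 receptors in each library, blue for p53 WT and orange for p53 KO, with a bar at each group mean. NRP1 lies lower in all p53 KO libraries, FLT4, FLT1, PDGFRB and PDGFRL lie higher, and PDGFRA and CD47 overlap.

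Among 12 proteases and cofactors that mature these factors or free them from matrix, 11 were tested, 5 fell and 2 rose. That was 63.6% called, against 26.5% of all genes tested, with a median log2 fold change of -0.26. PLAU, the urokinase that can activate PDGFD, fell from 67.5 ± 6.74 to 16.8 ± 2.01 CPM (SD, n = 3), or by 2.00 on the log2 scale (adjusted p = 1.31e-07). PLAT, the tissue plasminogen activator that opens PDGFC, had 38.2 to 44.8 CPM in p53 WT and 34.4 to 37.1 CPM in p53 KO, and did not pass the test (adjusted p = 0.219, named after its values were seen). Of 4 proprotein convertases, which cut growth factor precursors, 2 fell: PCSK5 from 26.0 ± 2.98 to 8.37 ± 1.26 CPM and FURIN from 131 ± 4.24 to 93.6 ± 10.1 CPM (SD, n = 3), with adjusted p = 6.70e-06 and 0.00312. FURIN lies among higher neighbours (median 0.57). It stood at -0.48 on the log2 scale and, with that median subtracted, at -1.06. The other convertases, named after their values were seen, did not pass the test: PCSK7 stood at -0.26 (adjusted p = 0.0979, groups apart) and PCSK6 at -0.16 (adjusted p = 0.809, groups overlapping).

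ADAMTS3, the protease that performs the final cut of VEGFC, moved the other way, from 20.4, 23.9 and 22.0 CPM in p53 WT to 76.5, 83.3 and 56.3 CPM in p53 KO (log2 fold change 1.71, SE 0.15, adjusted p = 1.58e-06). CCBE1, the cofactor of ADAMTS3 (singled out once its values were known), stood at -0.56 on the log2 scale (adjusted p = 0.0184), which became 0.10 (adjusted p = 0.710) once the neighbours' median of -0.66 was subtracted. The gelatinases split: MMP2 fell from 133 ± 2.51 to 48.1 ± 10.6 CPM and MMP9 rose from 8.81 ± 0.962 to 15.7 ± 3.42 CPM (SD, n = 3), with adjusted p = 3.19e-06 and 0.00520. For MMP2 the log2 fold change was -1.47, and -2.12 once the neighbours' median of 0.65 was subtracted.

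**Figure D5:**
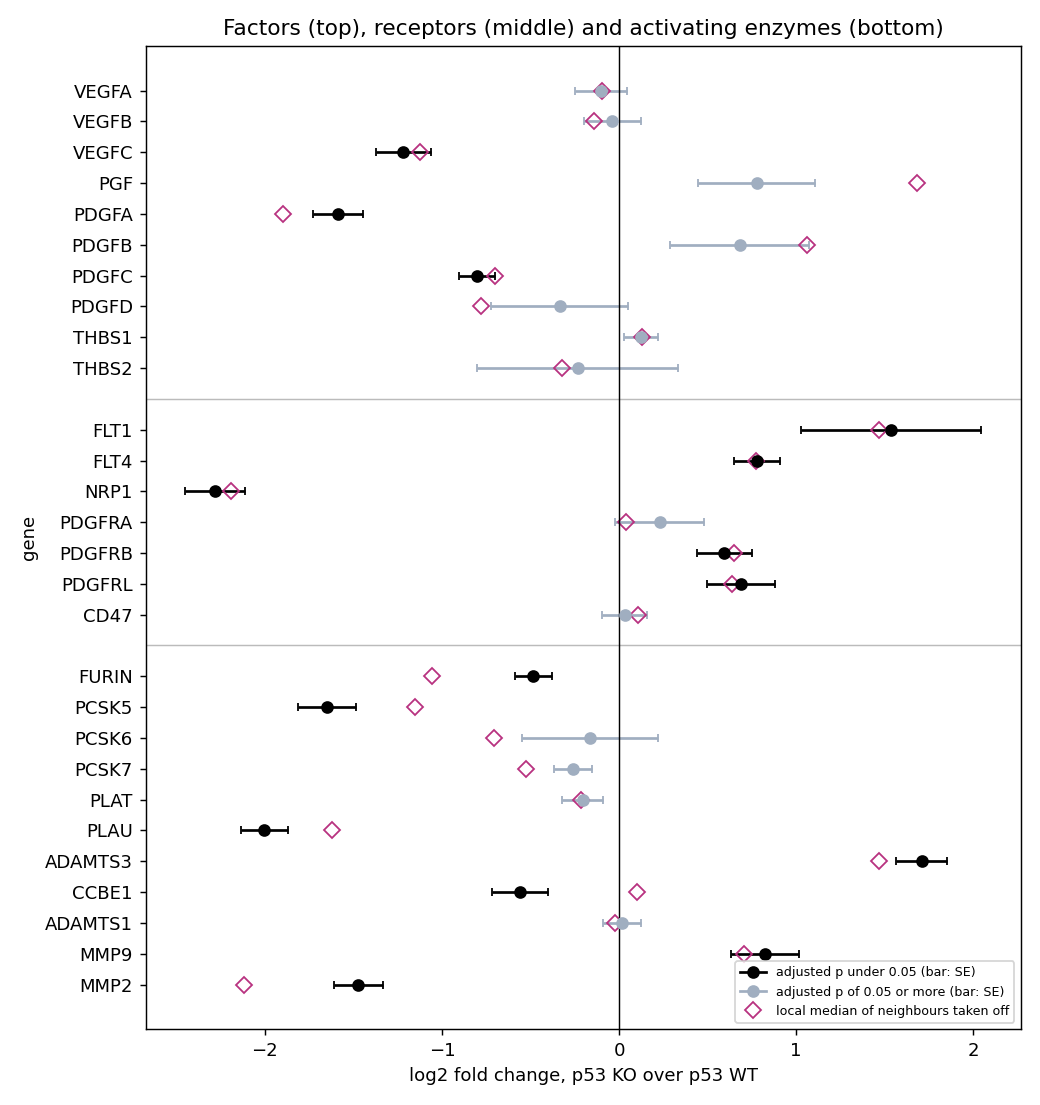
Log2 fold change (p53 KO over p53 WT) of the factors, receptors and activating enzymes with at least 200 counts summed over the 6 libraries. Bars are SE, and points are black where the adjusted p is under 0.05. Open diamonds give the value with the median of the neighbours subtracted, and the largest move among the factors is that of PGF, from 0.78 to 1.68.

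Several regulators of VEGFA changed. Of 16 genes for oxygen sensing and VEGFA mRNA stability, 8 rose and 3 fell, with a median log2 fold change of 0.30. That was 68.8% called, against 26.5% of all genes tested. EPAS1, which encodes the hypoxia-inducible factor HIF-2alpha, had 24.4, 21.1 and 31.4 CPM in p53 WT and 79.0, 97.2 and 71.8 CPM in p53 KO (log2 fold change 1.70, SE 0.16, adjusted p = 2.93e-06). EGLN3, a hydroxylase that marks these factors for degradation and is itself induced by them, had a log2 fold change of 1.34, and the ubiquitin ligases SIAH2 and SIAH1, which degrade such hydroxylases, had 1.27 and 0.85. SIAH2 lies among higher neighbours (local median 0.84), and its value was 0.42 (adjusted p = 0.0193) once these were taken off. For SIAH1 the value without the local median was 0.50 (adjusted p = 0.0259).

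All 3 of the genes that fell in that list lay among lower neighbours. HIF1A, which encodes the other main hypoxia-inducible factor, fell from 273 ± 31.6 to 188 ± 33.3 CPM (SD, n = 3), or by 0.54 on the log2 scale (adjusted p = 0.00649), and ZFP36L1, a protein that destabilises VEGFA mRNA, had -0.44 (adjusted p = 0.00433). With the neighbours' median subtracted, the values were 0.029 for HIF1A (adjusted p = 0.909) and 0.094 for ZFP36L1 (adjusted p = 0.563). HIF1AN, an asparagine hydroxylase that blunts these factors, had -0.27 on the log2 scale (adjusted p = 0.0474). With the neighbours' median subtracted, HIF1AN stood at -0.0050 (adjusted p = 0.979). It lost its call in 12 of 16 alternatives, among them all but 1 of the fits without 1 library, at adjusted p from 0.0678 to 0.171.

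Other ligands that act on blood vessels, to promote or to restrain their growth, were called about as often as all genes. Of 20 listed, 18 were tested, 3 rose and 3 fell, with a median log2 fold change of 0.28. That was 33.3% called, against 26.5% of all genes tested. NRG1, a ligand of ERBB receptors, had 794, 499 and 235 counts in p53 WT and 13, 15 and 0 in p53 KO (9.06 ± 1.44 and 0.181 ± 0.183 CPM, SD, n = 3, adjusted p = 1.45e-06). JAG1, a Notch ligand, fell from 48.3 ± 3.78 to 22.4 ± 2.96 CPM, and EDN1, the vasoconstrictor endothelin, from 31.9 ± 3.54 to 16.1 ± 2.21 CPM (SD, n = 3), with adjusted p = 2.64e-05 and 0.000177. SEMA3E, a semaphorin that binds plexin D1 on endothelium, rose from 21.9 ± 4.65 to 36.5 ± 3.11 CPM (SD, n = 3, adjusted p = 0.00241).

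The rises of CYR61, a matrix protein, and of MDK, the growth factor midkine, were small, at 0.32 and 0.39 on the log2 scale (adjusted p = 0.0214 and 0.0480). With limma-voom MDK had adjusted p = 0.0537. CYR61 lost its call without p53 KO replicate 1 or any 1 of the 3 p53 WT libraries, at adjusted p from 0.0665 to 0.101. MDK lost it without p53 WT replicate 2 or 3 or p53 KO replicate 1 or 3, at adjusted p from 0.0744 to 0.216, and, at adjusted p = 0.159, with the median of its neighbours removed, and without p53 KO replicate 3 its log2 fold change was 0.24.

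The list of inhibitors of vessel growth, which also holds relatives of inhibitors such as THBS4 and VASH2, went both ways. A place in it does not show that a gene inhibits. Of 20 listed, 17 were tested, 6 rose and 4 fell, with a median log2 fold change of 0.42. That was 58.8% called, against 26.5% of all genes tested. TIMP2 and TIMP3, inhibitors of metalloproteinases, rose from 201.8 ± 20.9 to 346 ± 25.6 CPM and from 58.4 ± 3.24 to 78.7 ± 4.23 CPM (SD, n = 3), with adjusted p = 7.28e-05 and 0.00627. TIMP3 stood at 0.43 on the log2 scale, and at 0.90 without the local median of -0.47. THBS4, another thrombospondin, rose from 2.12 ± 0.397 to 6.43 ± 0.607 CPM (adjusted p = 0.000367), and SEMA3F, a neuropilin ligand, from 7.84 ± 1.78 to 18.4 ± 2.13 CPM (SD, n = 3, adjusted p = 0.000266). COL4A2, the collagen chain from which canstatin is cut, fell from 800 ± 51.1 to 393 ± 68.6 CPM, and SPARC, a matricellular protein, from 1224 ± 8.30 to 896 ± 149 CPM (SD, n = 3), with adjusted p = 2.49e-05 and 0.00723.

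SEMA3A and ISM1, at -0.96 and -0.97 on the log2 scale, had adjusted p = 0.0243 and 0.0223. SEMA3A, a semaphorin that binds NRP1, lost its call without p53 WT replicate 2 or p53 KO replicate 2 or 3 (adjusted p from 0.0578 to 0.134), and without p53 KO replicate 1 its value was -1.45. ISM1, a secreted inhibitor with a thrombospondin repeat, lost it without p53 WT replicate 2 or p53 KO replicate 1 or 2 (adjusted p from 0.0527 to 0.153) and, at adjusted p = 0.0758, with its neighbours' median subtracted.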

How the data were processed

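Libraries of polyadenylated RNA were made with a stranded TruSeq protocol, per the labels, 3 from p53 WT and 3 from p53 KO cells, and grouped by title. The authors deposited raw counts for each gene symbol. They also deposited a comparison table that holds a signal (the mean normalised count), a log2 fold change with its error, a score (the test statistic), and p-values. The submitters' processing notes name GRCh37 (hg19) and the tools fastp 0.21.0, HISAT2 2.1.0 and DESeq2 1.3.6. Which program counted the reads, and whether it used strand, is not given in the sources used here. Reads of genes that overlap a factor, such as THBS2-AS1 on THBS2 or FSIP1 on THBS1, may therefore be shared. In all 35987 rows of the authors' table, fold change and score had opposite signs, and CDKN1A was positive, so positive values were taken to mean higher in p53 WT.

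The quasi-likelihood F-test of edgeR 4.0.16 (R 4.3.3, robust, TMM, filterByExpr) was run on the counts of 22352 genes, p-values were adjusted over all of them by Benjamini-Hochberg, and the threshold was 0.05. The SE was derived from F and the fold change, and 95% intervals from the SE and the t distribution. All 10 factors passed the filter. P-values measure the spread between these samples, which may be technical. Floors of single counts cover counting error only, whereas the 95% intervals of the fold changes also carry the spread between libraries. The factors, lists and tests were chosen with earlier results of these data known. The text names the factors, CDKN1A, MDM2, all receptors, and up to 4 genes per direction in each other list, by smallest adjusted p among those averaging at least 1 CPM. For marker lists it names called genes at that level and defining markers at 0. One gene that the rule also names is not reported here. Gene order for the neighbours came from RefSeq on GRCh38.p14, not the build of the counts, over protein-coding genes averaging at least 2 CPM. Alternatives were RLE, upper-quartile or no composition factors, no filter, 1 CPM in 3 libraries, DESeq2 1.42.0, limma-voom (limma 3.58.1), a threshold of 0.01, a replicate block, subtraction of the neighbours' median, and leaving out each library.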

Additional observations from a re-analysis of the deposited data

How the results depend on the processing

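PDGFA, VEGFC and PDGFC were called lower in every alternative run (3 in each), with log2 fold changes of -1.90 to -1.496, -1.37 to -1.11 and -0.84 to -0.70. The number of factors called higher was 0, and 1 (PGF) with the neighbours' median subtracted. Across the fits without 1 library it was 0 to 1. Of 159 alternative values of the factors, 157 kept their side of the threshold and 155 kept their sign. The 4 changes of sign were in factors that were not called: VEGFA without p53 KO replicate 3 (0.041), VEGFB without p53 WT replicate 1 (0.032) or p53 KO replicate 2 (0.14), and THBS2 without p53 WT replicate 1 (0.15). THBS2 had no value under the filter of 1 CPM in 3 libraries. Over all genes, 2697 were higher and 3227 lower, against 1659 and 2099 at an adjusted p under 0.01, and 1891 and 1946 with the neighbours' median subtracted, where 17127 genes were tested. Of 50 other genes named by the rule, 3 changed sign: CD47, not called, without p53 KO replicate 1 (-0.024), and the called genes HIF1A (0.029) and ZFP36L1 (0.094), both with the neighbours' median subtracted, and the cause was not tested beyond their neighbours' values.

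At an adjusted p under 0.01 the higher receptors went from 4 to 1, the higher ligands from 3 to 1 and the lower inhibitors from 4 to 2. Without p53 WT replicate 1 or 2 or p53 KO replicate 2 the higher receptors were 2, and without p53 KO replicate 2 the lower receptors were 2. The higher ligands were 1 without p53 WT replicate 2 or 3 or p53 KO replicate 1, the lower inhibitors 2 without p53 WT or p53 KO replicate 2, and the lower oxygen-sensing genes 1 with the neighbours' median subtracted.

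The replicate numbers did not pair the samples: deviations from group means of same-numbered libraries correlated at 0.02, 0.03 and -0.03. With the replicate block, 2297 genes were higher and 2862 lower, 3 factors were lower and 0 higher, and the higher ligands were 1. FLT1, CYR61, MDK, ISM1 and HIF1AN were not called with the block (adjusted p = 0.0609, 0.0620, 0.100, 0.0505 and 0.0921), and no other gene named by the rule lost its call. With the merged exon length in place of the longest coding transcript, a choice added after seeing the data, all 10 factors kept their rank in both groups. PGF, PDGFB, PDGFD and THBS2 had the fewest counts, 10 to 299 per library, and the SE of their log2 fold changes was 0.33 to 0.57, against 0.09 to 0.16 for the other 6 factors.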

Other observations

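Markers of vessel-associated and other cells were low or split. Of 9 endothelial markers matched, 8 were tested and 2 were higher in p53 KO (25% called, against 26.5% of all genes tested). These were ROBO4, a guidance receptor, at 16.3 ± 0.684 against 29.1 ± 3.13 CPM, and the transcription factor ERG at 8.33 ± 1.08 against 13.1 ± 2.14 CPM (SD, n = 3). The other tested markers, named after their values were seen, were not called and went both ways. TIE1, CLDN5, ESAM and VWF stood at -2.10, -1.05, -0.36 and -0.21 on the log2 scale, and TEK and CDH5 at 1.02 and 0.69. The call of ERG was lost without p53 WT replicate 1 or 3 or p53 KO replicate 1 or 2 (adjusted p from 0.0552 to 0.0829) and with the neighbours' median subtracted (adjusted p = 0.0880). The list summed to 30.4 to 30.9 CPM in p53 WT and 46.1 to 50.2 CPM in p53 KO, and most of these sums came from ROBO4 and ERG. CDH5, the cadherin that defines endothelium, had 5 to 18 counts per library, and EMCN had 15 counts in p53 WT replicate 1 and 0 elsewhere. The part of these markers in the receptor values was not tested.

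Of 8 mural cell markers, 3 were higher (MCAM, NOTCH3 and DES) and 1 lower (50% called). The list summed to 284 to 313 CPM in p53 WT and 362 to 411 CPM in p53 KO, and most of these sums came from MCAM. The other 4 markers, named after their values were seen, were not called and went both ways. CSPG4 and RGS5 stood at -0.31 and -0.18 on the log2 scale, and KCNJ8 and MYH11 at 0.33 and 0.28. With the neighbours' median subtracted, CSPG4 stood at -0.999 (adjusted p = 5.89e-05) and KCNJ8 at 0.66 (adjusted p = 0.0481). ACTA2, smooth muscle actin, fell from 12.6 ± 0.666 to 1.33 ± 0.248 CPM, while MCAM, an adhesion molecule, rose from 183 ± 10.1 to 280 ± 17.8 CPM (SD, n = 3). NOTCH3, whose log2 fold change was 0.59, was no longer called without p53 WT replicate 1 or p53 KO replicate 2 (adjusted p = 0.0640 and 0.0587) and with the neighbours' median subtracted (0.0852). DES, which encodes desmin, had 0.0930 ± 0.127 CPM in p53 WT and 2.57 ± 0.218 CPM in p53 KO (SD, n = 3), a log2 fold change of 4.66 that was 7.61 without p53 WT replicate 2.

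Of 8 markers of leukocytes and platelets, 3 were tested and 1 was called (33.3%, against 26.5% of all genes tested). This was CD68, which was lower (11.6 ± 1.18 against 4.42 ± 0.967 CPM, SD, n = 3). The list summed to 12.5 to 15.0 CPM in p53 WT and 5.26 to 7.20 CPM in p53 KO, and most of these sums came from CD68. The other tested markers, named after their values were seen, were not called and went both ways. PTPRC stood at -0.66 on the log2 scale (adjusted p = 0.266). ITGA2B, with 0 to 31 counts per library, stood at 2.54 (adjusted p = 0.0927). LYZ and PPBP had 0 counts in all libraries. Of 8 osteoblast lineage markers, 6 were tested, 3 were lower and 1 higher (66.7% called, against 26.5% of all genes tested). The osteoblast genes SP7 and IBSP had 0 counts in all libraries of this osteosarcoma line. SPP1, osteopontin, fell from 64.7 ± 5.99 to 11.02 ± 3.23 CPM, ALPL, alkaline phosphatase, from 7.49 ± 0.667 to 1.66 ± 1.00 CPM, and COL1A1, collagen I, rose from 688 ± 10.8 to 930 ± 82.8 CPM (SD, n = 3). RUNX2, the osteoblast transcription factor, had -0.69 and lost its call without p53 WT replicate 3 or p53 KO replicate 1 or 3 (adjusted p from 0.0545 to 0.0975).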
